A study of Mus musculus with 6 samples.

Results

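The 32 genes described here govern how mitochondria fuse and divide, how they are built, and how they and other cell contents are removed by autophagy. They were chosen by name, and each has a row in the deposited table of 54352 genes. Of the 32, 31 passed the filter on low values, a mean rlog of at least 5, which left 13094 genes for testing, and Phb did not. Rlog is a regularized log2 expression value, scaled between libraries. With 31 genes tested under limma with Benjamini-Hochberg adjustment over all 13094, none differed between groups at an adjusted p under 0.05 when all libraries were used.

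Heart RNA was sequenced in 6 libraries, 2 in each of 3 groups. The control group ate regular chow and received no vector. The other groups were C57BL/6 mice with type 2 diabetes (T2D), induced from 12 weeks of age with a diet holding 60% of calories as fat and 1 injection of streptozotocin at 75 mg/kg, a toxin of pancreatic beta cells. T2D was assessed 20 weeks into the diet. Both T2D groups received an adeno-associated virus (AAV) by jugular injection, 16 to 18 weeks after the streptozotocin dose. Hearts were studied 4 weeks later, at 5 to 6 months after induction. The virus was empty in the group called T2D empty vector. In the group called T2D dnMCUb it encoded FLAG-tagged murine MCUb carrying W246R and V251E, a dominant negative form of a subunit of the mitochondrial calcium uniporter. The promoter that drives the transgene is not given in the sources used here. Control therefore differed from both T2D groups in diet, streptozotocin and virus together, and only the comparison of the T2D groups has a vector control. Whether each library is a different animal is not stated in the labels, and p-values here reflect only library-to-library spread, which may be technical.

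Mitochondria in heart muscle form a network that is remodelled by fusion, which joins organelles and mixes their contents, and by fission, which separates pieces that can be discarded. Worn mitochondria are marked by receptors or by ubiquitin and enclosed in an autophagosome, which then fuses with a lysosome. New mitochondrial mass depends on nuclear transcription factors that serve the respiratory chain and on factors that maintain mitochondrial DNA. In diabetic hearts these processes are studied because cardiac muscle relies on mitochondrial oxidation of fatty acids and glucose.

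Library 1 of T2D dnMCUb stood apart from the other 5. On the first principal component, which held 46.7% of the variance between libraries, it lay at 10.8 and the others between -4.42 and 2.69. The summed level of 8 cardiomyocyte markers was 20.01 there and 20.20 to 20.38 elsewhere, on the log2 scale. The same measure was 15.43 against 14.80 to 15.13 for 8 fibroblast markers, 12.68 against 12.41 to 12.50 for 10 macrophage markers, and 12.15 against 10.46 to 11.55 for the atrial markers. Between groups, 7 of 8 cardiomyocyte markers were below control in T2D empty vector (median -0.13) and 8 of 8 in T2D dnMCUb (median -0.19). For fibroblast markers 8 of 8 were above control in each (medians 0.13 and 0.26). All 8 overlapped control in T2D empty vector, where they summed to 14.80 and 15.13, beside 14.91 and 14.80 in control. Macrophage markers were above control for 8 of 10 in T2D empty vector (median 0.03) and 10 of 10 in T2D dnMCUb (median 0.17). Of 4 atrial markers tested, 4 were below control in T2D empty vector (median -0.64) and 1 in T2D dnMCUb (median 0.36). Limma called none of them, and of these the authors' deposited table calls Myl2, lower in T2D empty vector (log2 fold -0.30, adjusted p = 0.0342). The 5 red cell markers summed to 12.47 and 13.00 (T2D dnMCUb), 11.70 and 11.73 (T2D empty vector) and 12.64 and 11.72 (control). Against T2D empty vector all 5 were higher in T2D dnMCUb (median 0.88), called by the authors' deposited table and not by limma. No marker in any of these lists was below an rlog of 1 in all libraries. The part that these markers play in the results below was not tested, and in bulk tissue fewer cells of a type and less RNA per cell cannot be told apart. Mcub, the gene that the vector carries in mutated form, read 5.62 and 5.47 in the libraries labelled T2D dnMCUb and 5.48 and 5.46 in T2D empty vector. The difference was 0.08 ± 0.0480 (limma SE; adjusted p = 0.888), so this gene did not show the transgene, and whether reads of the vector's sequence would be counted there is not given in the sources used here. Depth is unknown, since the values are not counts.

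Levels of the 32 genes were compared with one another only per kilobase of transcript, as mean rlog over the 6 libraries minus log2 of the length. Pink1, the kinase that marks depolarized mitochondria, was highest at 12.39, and Map1lc3a, which encodes an LC3 protein of the autophagosome membrane, followed at 12.26. Next in order were Lamp1 at 11.65, Mfn2 at 11.58 and Sqstm1 at 11.09. The lowest were Tfeb at 7.39, Nrf1 at 6.77, Ulk1 at 6.54, Atg7 at 6.23 and Phb at 4.46. The transcription factors Tfeb and Nrf1 and the kinase Ulk1 were thus among the 5 lowest. Of 31 neighbouring pairs in the order, 17 had ranges over the libraries that did not overlap and 14 had ranges that did. Lamp1 and Mfn2, and Sqstm1 and Park7, were among the pairs whose order changed between libraries. The ranges of Pink1 and Map1lc3a overlapped, but Pink1 was the higher in each of the 6 libraries.

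The levels moved little between libraries. The range of a gene over the 6 libraries ran from 0.0633, for Tfeb, to 0.342, for Mfn2, with a median of 0.136 over the 31 genes tested, beside 0.125 over all genes tested. Of the 31, 17 were lowest in library 1 of T2D dnMCUb, the library where 27.8% of all genes tested were lowest. Control 1 held the highest value of 9 genes, beside 18.6% of all genes tested, and T2D empty vector 1 that of 8, beside 14.3%. The gap between the libraries of a group had a median of 0.0324 for control, 0.0386 for T2D empty vector and 0.0675 for T2D dnMCUb. An interval of a difference between groups reached a median of 0.124 to either side, so differences smaller than that could not be resolved for a typical member. Rlog draws values together. Genes called in the authors' deposited table had rlog differences smaller than their log2 folds there, by a median ratio of 0.582 for T2D empty vector against control, 0.465 for T2D dnMCUb against T2D empty vector and 0.509 for T2D dnMCUb against control.

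**Figure D1:**
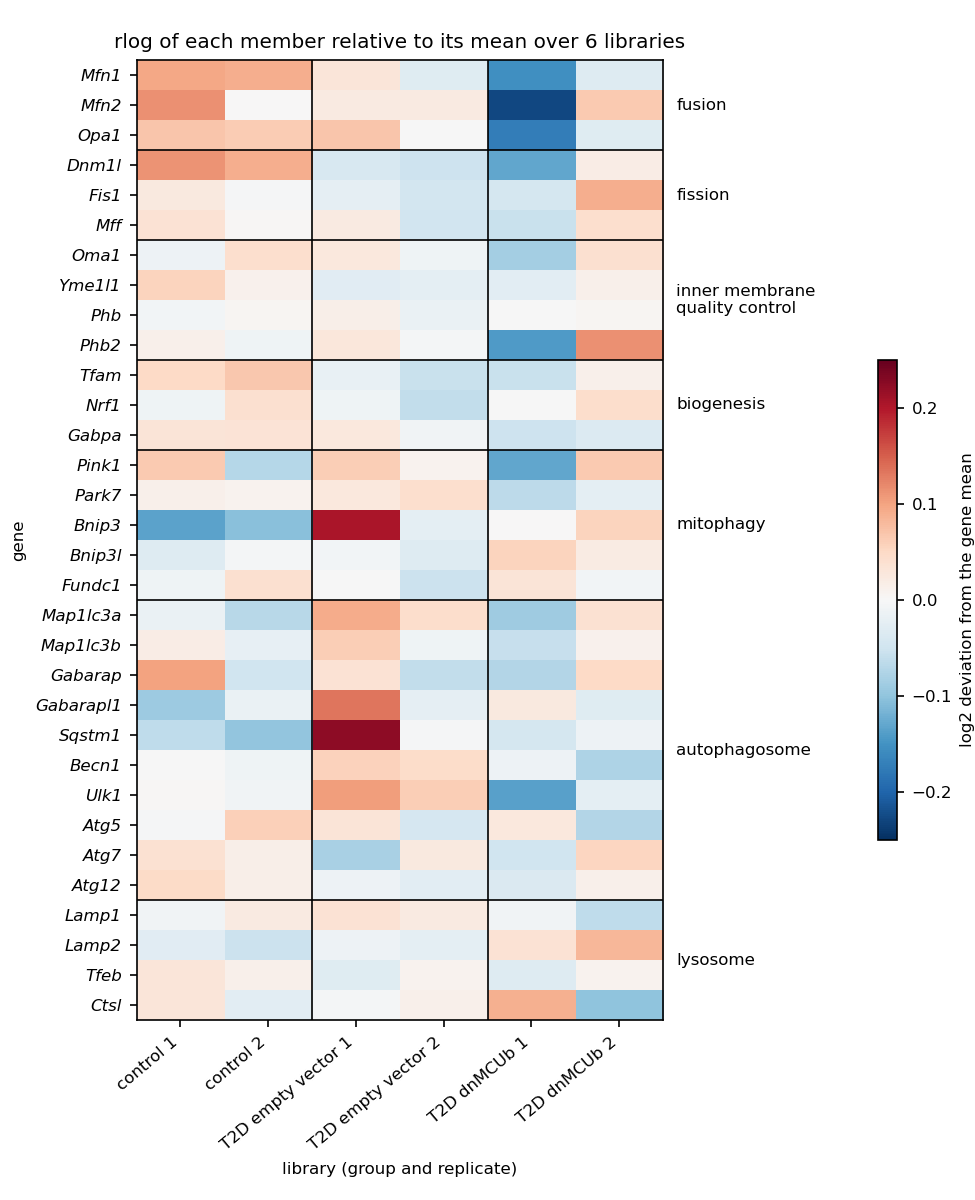
Deviation of each gene from its own mean over the 6 libraries, in rlog (log2 scale), with genes grouped by role. The column of T2D dnMCUb 1 holds the lowest value of 17 of the 31 genes tested.

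For T2D empty vector against control, limma called 0 of 31 members, beside 0% of all genes. At an unadjusted p under 0.05 there were 3 members (9.68%), beside 6.13% of all genes. That count and the share of all genes both fell without either control library or without library 1 of T2D empty vector. Both rose without either T2D dnMCUb library. The libraries of the groups did not overlap for 15 members (48.4%), 7 higher and 8 lower in T2D empty vector, beside 42.4% of all genes, 19.9% higher and 22.5% lower. The differences of 13 members were above 0 and of 18 below, beside 48.2% and 51.8% of all genes, with a median of -0.02, beside -0.0025 over all genes. Without library 2 of T2D empty vector, 18 were above 0 and 13 below, with a median of 0.0037. By the authors' deposited table, 0 members passed an adjusted p under 0.05, beside 0.542% of all genes, and 3 passed an unadjusted p under 0.05, beside 4.33%.

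For T2D dnMCUb against T2D empty vector, limma again called 0 of 31 members, beside 0% of all genes. An unadjusted p under 0.05 was reached by 1 member (3.23%), beside 5.64% of all genes. Without library 2 of T2D dnMCUb it was reached by 7, all lower, beside 15.7%, without library 1 by 2, beside 7.98%, and without library 1 or 2 of T2D empty vector by 0 and 3, beside 2.73% and 4.49%. Groups did not overlap for 12 members (38.7%), 3 higher and 9 lower, beside 32.2% of all genes, 15.6% higher and 16.5% lower. There were 20 differences below 0, beside 50.5% of all genes. The median difference was -0.03 with all libraries, 0.02 without library 1 of T2D dnMCUb and -0.06 without library 2, so its sign rested on the first. No member passed the adjusted threshold by the authors' deposited table, beside 0.0611% of all genes, and 0 had an unadjusted p under 0.05, beside 1.82%.

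For T2D dnMCUb against control, limma called 0 of 31 members, beside 0.0687% of all genes, and 3 had an unadjusted p under 0.05 (9.68%), all lower, beside 11.4% of all genes and 5.54% lower. Without library 1 of T2D dnMCUb there was 1 such member, and it was higher, beside 10.3% of all genes. Compared with all libraries, the count of such members and the share of all genes both rose without library 2 of T2D dnMCUb. Both fell without either control library or either T2D empty vector library. Groups did not overlap for 14 members (45.2%), 4 higher and 10 lower, beside 42.9% of all genes, 20.2% higher and 22.7% lower. There were 8 differences above 0 and 23 below, beside 48.5% of all genes above 0 and 51.5% below, with a median of -0.03 that became 0.0076 without library 1 of T2D dnMCUb. The authors' deposited table gives no member past the adjusted threshold, beside 0.794% of all genes, and 2 with an unadjusted p under 0.05, beside 5.67%. With both T2D groups set against control, 0 members were called by limma, beside 0% of all genes. There were 3 members with an unadjusted p under 0.05 (9.68%), beside 9.69% of all genes. Count and share both fell without either control library or either T2D empty vector library, and both rose without library 2 of T2D dnMCUb. Libraries did not overlap for 9 members (29%), 3 higher and 6 lower, beside 21.9% of all genes, 10% higher and 11.9% lower. The comparisons with control share the same control libraries.

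**Figure D2:**
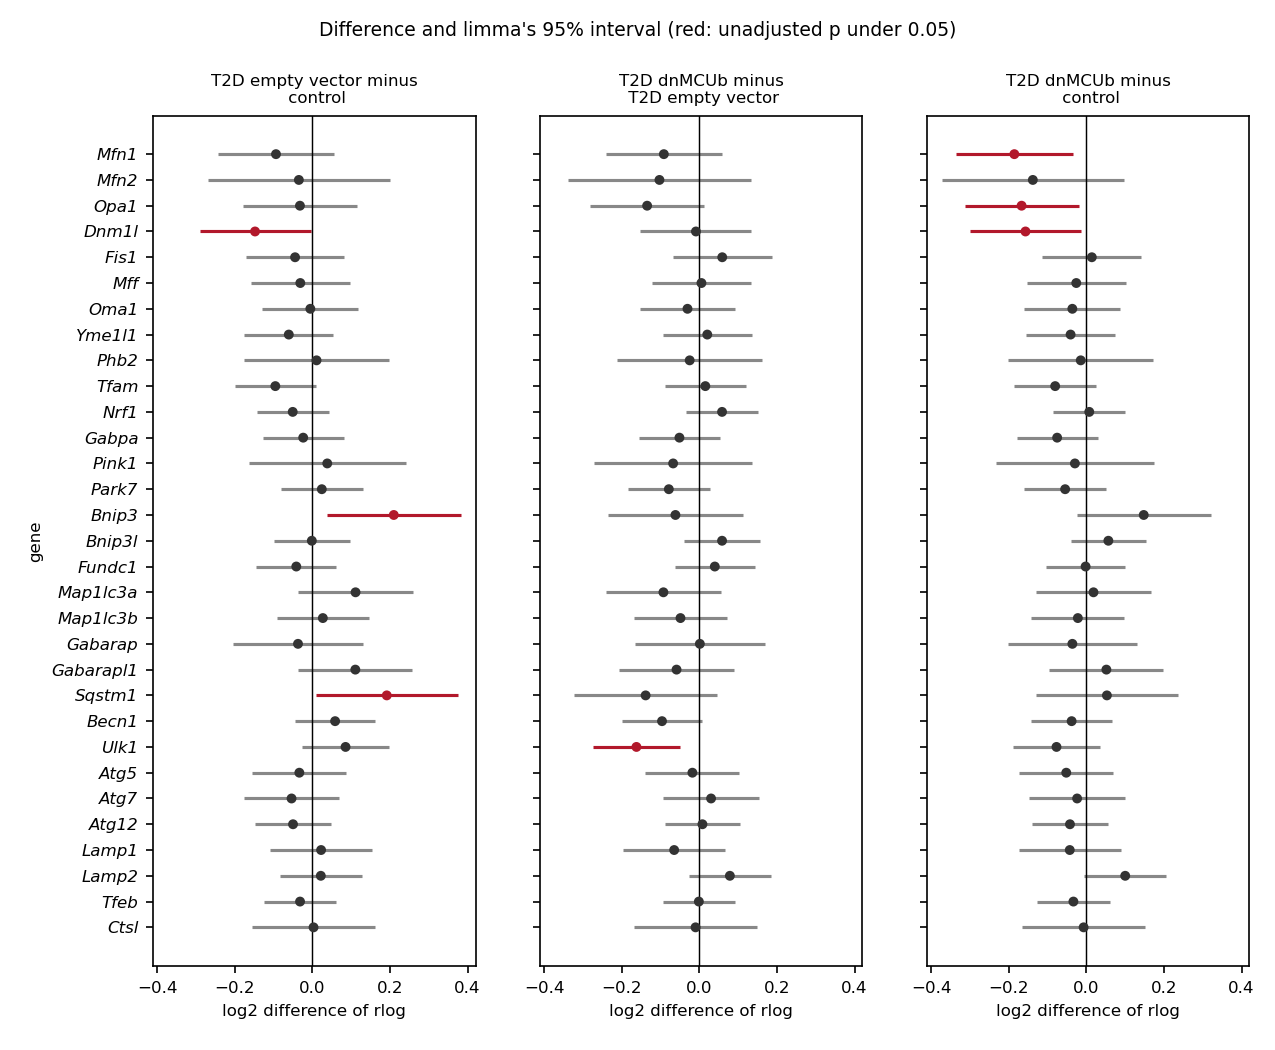
Difference in rlog (log2 scale) between groups for each of the 31 genes tested, with limma's 95% interval, in the 3 pairwise comparisons. Intervals that leave out 0 belong to Bnip3, Sqstm1 and Dnm1l for T2D empty vector against control, to Ulk1 for T2D dnMCUb against T2D empty vector, and to Mfn1, Opa1 and Dnm1l for T2D dnMCUb against control, before adjustment over genes.

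The fusion genes had their lowest values in T2D dnMCUb. Mfn1 and Mfn2 encode the mitofusins, GTPases that join outer membranes, and Opa1 encodes the GTPase that joins inner membranes and shapes cristae. All 3 were lower in T2D dnMCUb than in control, with a median difference of -0.17, and in T2D empty vector the median was -0.04. None passed the adjusted threshold.

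Mfn1 (ENSMUSG00000027668.13, plus strand, chr3:32529465-32579239, GRCm38) read 12.92 and 12.92 (control), 12.86 and 12.80 (T2D empty vector) and 12.67 and 12.79 (T2D dnMCUb). Each T2D library was below both control libraries, and T2D dnMCUb lay below T2D empty vector with no overlap. The difference of T2D dnMCUb from control was -0.19 ± 0.0645 (limma SE; 95% interval -0.34 to -0.04; adjusted p = 0.345 by limma with Benjamini-Hochberg adjustment). The authors' deposited table has a log2 fold of -0.27 for it, with an adjusted p of 0.668. Its difference between T2D empty vector and control was -0.09, and between the T2D groups also -0.09.

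Opa1 (chr16:29579380-29651876, plus strand) read 11.89 and 11.89 (control), 11.89 and 11.82 (T2D empty vector) and 11.65 and 11.79 (T2D dnMCUb). The T2D empty vector libraries overlapped control, while those of T2D dnMCUb lay below both other groups. Opa1 differed by -0.17 ± 0.0632 from control (limma adjusted p = 0.387) and by -0.14 ± 0.0632 from T2D empty vector (limma adjusted p = 0.871). Mfn2 (chr4:147873599-147904704, minus strand), added to the genes given in full after its values were seen, read 13.80 and 13.69 (control), 13.71 and 13.71 (T2D empty vector) and 13.46 and 13.75 (T2D dnMCUb). Library 1 of T2D dnMCUb was the lowest of the 6, while library 2 lay within the control range.

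The size of these differences depended on library 1 of T2D dnMCUb. Without library 2 of the group, Mfn1 (-0.25), Opa1 (-0.24), Mfn2 (-0.28) and the fission gene Dnm1l (-0.23) passed limma's threshold against control, with adjusted p-values of 0.0472, 0.0472, 0.0472 and 0.0432. In that fit 743 of all genes were called, and the lone library was assumed to vary as those of the other groups do. Without library 1, Mfn1 differed by -0.13, Opa1 by -0.10, Dnm1l by -0.08 and Mfn2 by 0.0076, with limma adjusted p-values of 0.508, 0.652, 0.688 and 0.990. The sign of Mfn2 therefore turned. In library 1 the cardiomyocyte markers were lower and the fibroblast, macrophage and atrial markers higher, by the summed levels given above, and their part in these values was not tested.

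**Figure D3:**
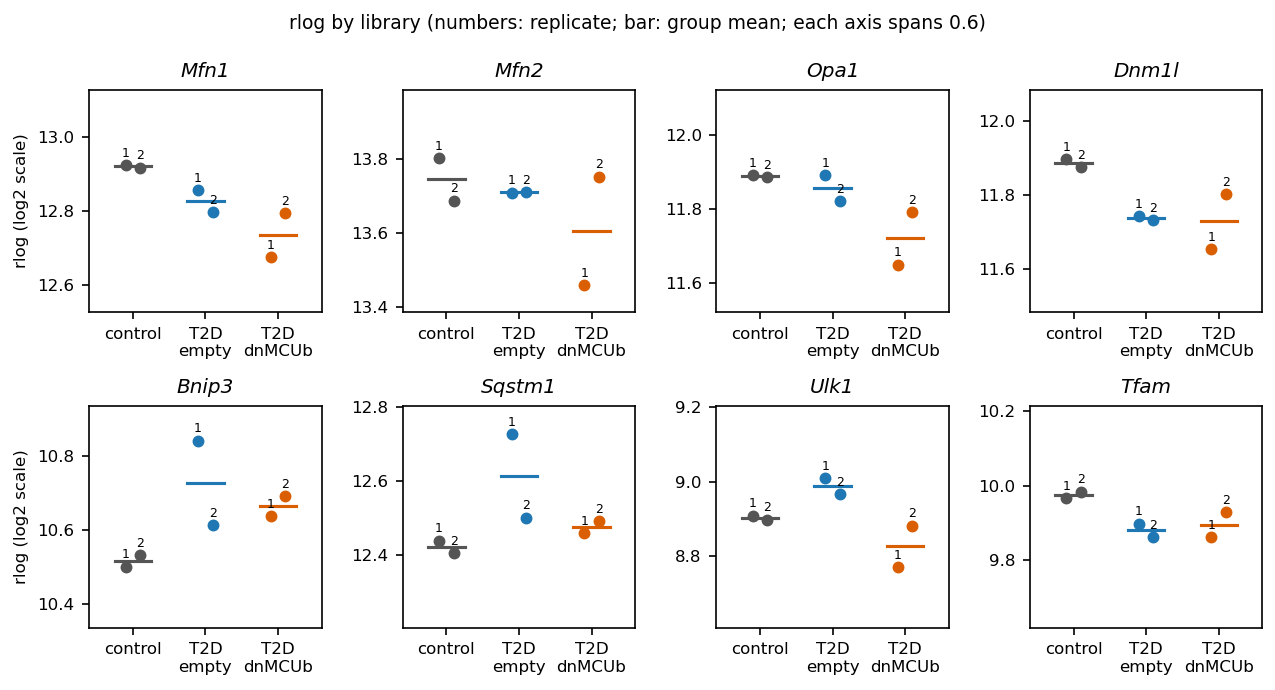
Rlog (log2 scale) of single libraries for the genes described in full, with the mean of each group as a line. Mfn1 and Dnm1l lay below control in all 4 T2D libraries, Bnip3 and Sqstm1 lay above control in all 4, and T2D empty vector 1 was the highest library for Bnip3 and Sqstm1.

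Among the fission genes Dnm1l, which encodes the GTPase that constricts mitochondria (chr16:16312230-16358959, minus strand), was lower in both T2D groups. It read 11.90 and 11.88 (control), 11.74 and 11.73 (T2D empty vector) and 11.65 and 11.80 (T2D dnMCUb). No T2D library reached the control libraries, and the T2D groups overlapped each other. The summed cardiomyocyte markers were likewise 20.29 and 20.38 in control and 20.01 to 20.28 over the 4 T2D libraries, and their part in the values of Dnm1l, Mfn1 and Tfam was not tested. The difference was -0.15 ± 0.0616 for T2D empty vector against control (limma adjusted p = 0.806), -0.16 ± 0.0616 for T2D dnMCUb (adjusted p = 0.398), and -0.15 ± 0.0533 for both T2D groups (adjusted p = 0.438). The adaptors that recruit its product to the outer membrane stood closer together. Fis1 spanned 10.19 to 10.33 and Mff 11.09 to 11.19 over the 6 libraries, and their differences lay between -0.04 and 0.06 in the pairwise comparisons.

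No protease or prohibitin of the inner membrane passed the threshold. Oma1, a stress-activated protease that cleaves OPA1, spanned 9.33 to 9.46, and Yme1l1, the other OPA1 protease, 11.48 to 11.56. Phb2, which forms the prohibitin ring and also serves as a mitophagy receptor, read 11.32 and 11.30 (control), 11.34 and 11.31 (T2D empty vector) and 11.17 and 11.42 (T2D dnMCUb). The lowest and the highest value of Phb2 were thus both in T2D dnMCUb. Phb, its partner, was at only 3.95 to 3.98 over the 6 libraries and was not tested. Its transcript of 711 bases shares 99.84% identity over 621 bases with Gm7666, a transcribed processed pseudogene, whose row had a mean of 10.51. How reads were divided between the rows is not given in the sources used here, so the level of Phb is uncertain. Gm7666 read 10.59 and 10.60 (control), 10.49 and 10.48 (T2D empty vector) and 10.38 and 10.55 (T2D dnMCUb). It was below control in all 4 T2D libraries, by -0.13 ± 0.0618 in T2D dnMCUb (limma adjusted p = 0.474).

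Of the biogenesis genes, Tfam encodes the factor that packages and transcribes mitochondrial DNA. It read 9.97 and 9.98 (control), 9.90 and 9.86 (T2D empty vector) and 9.86 and 9.93 (T2D dnMCUb), so all 4 T2D libraries were below control. The difference was -0.10 for T2D empty vector and -0.08 for T2D dnMCUb, and neither passed the threshold. Nrf1, a transcription factor for respiratory chain genes, read 7.41 and 7.46 (control), 7.41 and 7.36 (T2D empty vector) and 7.42 and 7.47 (T2D dnMCUb). T2D empty vector overlapped control, and T2D dnMCUb was above it by 0.06 with no overlap between the T2D groups. Gabpa, which encodes the DNA-binding subunit of NRF2, spanned 10.79 to 10.88. It overlaps Atp5j, which lies on the opposite strand, and the strand setting of the counting is not given in the sources used here.

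Mitophagy receptors and the PINK1 pathway gave no common direction. Bnip3, an outer membrane receptor that is induced in low oxygen (chr7:138890836-138909506, minus strand), read 10.50 and 10.53 (control), 10.84 and 10.61 (T2D empty vector) and 10.64 and 10.69 (T2D dnMCUb). All 4 T2D libraries were above control. The difference was 0.21 ± 0.0744 for T2D empty vector (limma SE; 95% interval 0.04 to 0.38; adjusted p = 0.801) and 0.15 ± 0.0744 for T2D dnMCUb (adjusted p = 0.491). For T2D empty vector the authors' deposited table has a log2 fold of 0.35, with an adjusted p of 0.427. Without library 1 of T2D empty vector the difference was 0.10, and without library 2 it was 0.32.

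Bnip3 has a near copy, Gm16439, with 98.94% identity over 564 bases, a mean of 7.89 and a difference of 0.08 ± 0.0540 for T2D empty vector. The share of its reads that belongs to Bnip3 is unknown. Bnip3l, the closest relative of Bnip3, read 9.69 and 9.72 (control), 9.72 and 9.69 (T2D empty vector) and 9.78 and 9.74 (T2D dnMCUb), 0.06 above each of the other groups without overlap. It shares 99.38% identity over 1131 bases with Bnip3l-ps. Fundc1, another outer membrane receptor, spanned 9.24 to 9.33. Pink1 spanned 13.49 to 13.69, with its lowest value in library 1 of T2D dnMCUb and overlapping groups. Park7, which encodes the oxidative stress sensor DJ-1, spanned 10.82 to 10.93, with T2D dnMCUb below both other groups and a difference of -0.08 from T2D empty vector.

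Of the 10 autophagosome genes, 6 were above control in T2D empty vector (median 0.04), beside 48.2% of all genes. In T2D dnMCUb 7 were below T2D empty vector (median -0.05), beside 50.5% of all genes. These comparisons share the T2D empty vector libraries, so the counts are not independent, and no gene passed limma's threshold in either. Ulk1, the kinase that starts autophagosome formation (chr5:110784488-110810097, minus strand), read 8.91 and 8.90 (control), 9.01 and 8.97 (T2D empty vector) and 8.77 and 8.88 (T2D dnMCUb). The groups did not overlap, with T2D empty vector on top and T2D dnMCUb at the bottom. The difference between the T2D groups was -0.16 ± 0.0486 (limma SE; 95% interval -0.28 to -0.05; adjusted p = 0.784). It was -0.11 without library 1 of T2D dnMCUb (limma adjusted p = 0.638) and -0.22 without library 2 (adjusted p = 0.114). For this difference the authors' deposited table has a log2 fold of -0.34, with an adjusted p of 0.9999.

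Sqstm1, which encodes the cargo adaptor p62 (chr11:50199366-50210791, minus strand), read 12.44 and 12.41 (control), 12.73 and 12.50 (T2D empty vector) and 12.46 and 12.49 (T2D dnMCUb). All 4 T2D libraries were above control, and library 1 of T2D empty vector stood highest. The difference from control was 0.19 ± 0.0789 in T2D empty vector (limma adjusted p = 0.806), 0.08 without that library and 0.30 without library 2. In T2D dnMCUb it was 0.05. Becn1, part of the lipid kinase complex that nucleates autophagosomes, read 10.10 and 10.09 (control), 10.16 and 10.15 (T2D empty vector) and 10.09 and 10.02 (T2D dnMCUb). It had the same order of groups as Ulk1, and the difference between the T2D groups was -0.10 (limma adjusted p = 0.871).

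The LC3 and GABARAP genes, which encode the ubiquitin-like proteins that coat the autophagosome, differed in which libraries were high. Map1lc3a read 12.50 and 12.45 in T2D empty vector, above 12.39 and 12.34 in control, and 12.32 and 12.45 in T2D dnMCUb. Gabarapl1 spanned 10.56 to 10.79, with the highest value in library 1 of T2D empty vector, where Bnip3 and Sqstm1 were also highest. Gabarap spanned 11.16 to 11.33 and Map1lc3b 10.73 to 10.85, with groups that overlapped in the pairwise comparisons. Map1lc3b has a near copy in Gm6055 (99.74% identity over 378 bases). It also overlaps Gm20388, a protein-coding gene on the same strand with a mean of 10.10, so the level of Map1lc3b is uncertain. The conjugation genes Atg5 (8.77 to 8.90), Atg7 (8.05 to 8.19) and Atg12 (9.35 to 9.44), whose products attach these proteins to membranes, had differences between -0.05 and 0.03 in the pairwise comparisons.

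Of the lysosome genes, Lamp2, which encodes a membrane glycoprotein needed for fusion of autophagosomes with lysosomes, read 10.69 and 10.67 (control), 10.71 and 10.70 (T2D empty vector) and 10.76 and 10.80 (T2D dnMCUb). The groups did not overlap. T2D dnMCUb was above control by 0.10 (limma adjusted p = 0.453) and above T2D empty vector by 0.08. Lamp1, the other abundant lysosomal membrane glycoprotein, spanned 12.73 to 12.83, and Ctsl, a lysosomal protease, 11.27 to 11.46. Tfeb, the transcription factor for lysosomal and autophagy genes, had the narrowest range of the 31 genes tested, 8.54 to 8.61. Its difference was -0.03 for T2D empty vector against control, with limma's 95% interval running from -0.13 to 0.06.

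Promoter windows from RefSeq (GRCm38.p6) cover 250 bases before to 50 after the gene start and were found for 28 of the 32 genes. They were searched on both strands for letters that factors among the members or their known partners bind: CACGTG, the E-box core that TFEB and related factors bind, TCACGTGA, which contains it, the palindrome of NRF1, spelled by the capitals of the Opa1 window, and CCGGAAGT for the ETS family that includes GABPA. CACGTG was in the windows of 6 members (Atg5, Atg7, Bnip3, Ctsl, Lamp1 and Phb), 21.4% beside 8.09% of all 27025 genes. The Atg7 window (chr6:114670846-114671145) lies inside the Atg7 transcript of the deposited table, which starts at 114643097. TCACGTGA was in 0 members beside 1.12% of genes. The NRF1 letters were in 1 member, Opa1 (3.57% beside 1.07%), and the ETS letters in 4, Fis1, Mfn1, Phb2 and Tfam (14.3% beside 4.31%). These are matches of letters and not measured binding. Below are the windows of Mfn1 and Opa1, fusion genes with low values in T2D dnMCUb, of Bnip3, the member furthest above control in T2D empty vector, and of Lamp1, whose window holds 4 E-boxes. Each is written 5′ to 3′ on the strand of the gene, with the matched letters in capitals: CCGGAAGT at -44 in Mfn1 (chr3:32529232-32529531, plus), the NRF1 palindrome at -59 in Opa1 (chr16:29579084-29579383, plus), CACGTG at -108 in Bnip3 (chr7:138909457-138909756, minus) and CACGTG at -61, -45, -28 and -15 in Lamp1 (chr8:13158911-13159210, plus). Positions count from the gene start as 1.
Mfn1: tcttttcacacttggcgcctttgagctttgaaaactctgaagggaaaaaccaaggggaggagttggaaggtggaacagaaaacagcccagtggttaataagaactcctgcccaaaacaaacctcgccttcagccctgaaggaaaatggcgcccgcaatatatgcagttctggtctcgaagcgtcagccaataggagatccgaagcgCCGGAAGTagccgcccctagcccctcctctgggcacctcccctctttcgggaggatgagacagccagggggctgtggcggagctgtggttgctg
Opa1: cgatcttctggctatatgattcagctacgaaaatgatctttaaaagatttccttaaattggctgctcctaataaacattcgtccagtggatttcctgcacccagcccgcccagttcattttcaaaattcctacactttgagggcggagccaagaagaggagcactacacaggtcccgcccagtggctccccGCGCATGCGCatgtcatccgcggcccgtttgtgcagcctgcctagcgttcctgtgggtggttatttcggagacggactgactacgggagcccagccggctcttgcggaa
Bnip3: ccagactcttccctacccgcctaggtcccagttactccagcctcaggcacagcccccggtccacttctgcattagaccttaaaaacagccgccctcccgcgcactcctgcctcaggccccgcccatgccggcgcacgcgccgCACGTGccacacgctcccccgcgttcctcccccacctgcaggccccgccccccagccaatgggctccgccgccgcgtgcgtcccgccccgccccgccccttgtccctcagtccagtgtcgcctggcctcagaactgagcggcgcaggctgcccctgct
Lamp1: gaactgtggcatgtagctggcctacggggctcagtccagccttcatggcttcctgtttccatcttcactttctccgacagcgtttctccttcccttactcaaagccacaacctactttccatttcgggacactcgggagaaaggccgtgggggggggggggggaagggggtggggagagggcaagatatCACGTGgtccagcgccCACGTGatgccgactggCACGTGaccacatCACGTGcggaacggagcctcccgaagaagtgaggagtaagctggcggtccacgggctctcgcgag
The E-box members did not share a direction. In T2D empty vector Bnip3 was 0.21 above control, Lamp1 0.02 above and Ctsl 0.0027 above. Atg5 and Atg7 were -0.03 and -0.05 from control, and Phb was not tested. The ETS members were all below control in T2D empty vector except Phb2, beside 51.8% of all genes. Their differences were -0.10 for Tfam, -0.09 for Mfn1, -0.04 for Fis1 and 0.01 for Phb2. In T2D dnMCUb they were -0.08 for Tfam, -0.19 for Mfn1, 0.01 for Fis1 and -0.01 for Phb2. A link between these letters and the levels was not tested.

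The pathways around these genes were covered by 176 other genes in wider lists, of which 172 were tested. With all libraries limma called none in any comparison. Without library 2 of T2D dnMCUb it did call some, for T2D dnMCUb against control and for both T2D groups. That fit held a single T2D dnMCUb library. For T2D dnMCUb against control, calls over all genes rose there too. At an unadjusted p under 0.05 there were 4 higher and 7 lower for T2D empty vector against control, beside 3.26% and 2.87% of all genes. For T2D dnMCUb against T2D empty vector there were 3 and 6, beside 3.12% and 2.53%, and for T2D dnMCUb against control 8 and 14, beside 5.89% and 5.54%. In this last comparison the balance of directions rested on which T2D dnMCUb library was used. The authors' deposited table has 2 of the 172 genes past the adjusted threshold, both in this comparison and both lower. Optn, which encodes a mitophagy adaptor, read 10.70 and 10.77 (control), 10.62 and 10.50 (T2D empty vector) and 10.35 and 10.39 (T2D dnMCUb). It differed by -0.37 ± 0.0569 (limma adjusted p = 0.0727), and the authors' deposited table gives -0.60 with an adjusted p of 0.00257. Without library 1 of T2D dnMCUb the Optn difference was -0.35 (limma adjusted p = 0.0599), nearly the same size.

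Rragd, a Rag GTPase that helps to place the kinase mTORC1 on the lysosome, read 11.65 and 11.64 (control), 11.51 and 11.32 (T2D empty vector) and 11.24 and 11.39 (T2D dnMCUb). Both T2D groups were below control. The difference for T2D dnMCUb was -0.33 ± 0.0783 (limma adjusted p = 0.193), -0.25 without library 1, and -0.51 with an adjusted p of 0.0195 in the authors' deposited table. The list for mitochondrial fusion, fission and the inner membrane had 23 of 26 tested genes below control in T2D dnMCUb, with a median of -0.07, beside 51.5% of all genes. Without library 1 of T2D dnMCUb, 16 of the 26 were below control and the median was -0.01. Against T2D empty vector, 20 of the 26 were lower in T2D dnMCUb. That became 5 lower and 21 higher without library 1 of T2D dnMCUb. For T2D dnMCUb against control, the lysosome list had 25 genes higher and 26 lower, and the autophagosome list 19 and 23. The mitophagy list had 5 and 13, and the mitochondrial DNA and biogenesis list 6 and 17. The FoxO and atrophy list had 12 of 12 genes above control in T2D empty vector, with a median of 0.08, beside 48.2% of all genes. Of these, 0 had an unadjusted p under 0.05 by limma. All were read in the same libraries, and the lists were chosen with earlier results of these data known. The count is therefore no independent support. In that comparison the 172 genes of all lists split into 88 higher and 84 lower. The FoxO count was 11 without library 1 of T2D empty vector and 11 without library 2 of control. In T2D dnMCUb 7 of the 12 genes were above control, with a median of 0.04, beside 48.5% of all genes. There the count was 8 without library 1 of T2D dnMCUb and 5 without library 2. With all libraries none of these genes passed limma's threshold.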

How the data were processed

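The genes and lists were chosen with earlier results of these data known. RNA libraries were stranded and depleted of ribosomal RNA, per the labels' protocols. Tools listed in the submitters' processing notes are STAR 2.5.2a, bcl2fastq 2.20.0.422 and DESeq2, and the builds listed are GRCm38, mm10 and hg38, with no roles. How reads were counted, and on which strand, is not given in the sources used here. The authors deposited 1 table with rlog values on the log2 scale for the 6 libraries. For 3 comparisons the authors' deposited table also holds log2 fold changes, p-values and adjusted p-values. It holds no counts, which leaves the depth unknown. The series text has MCUb where the sample labels have dnMCUb, and the sample labels were followed.

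Differences in rlog are the group named first minus the other. They were tested with limma 3.58.1 (R 4.3.3), using a mean-variance trend, in a single fit of all 6 libraries with 3 residual degrees of freedom and 4.60 from the prior. Genes entered at a mean rlog of 5 or more (13094 genes), and Benjamini-Hochberg adjustment ran over all of them with a threshold of 0.05. The fit was tested on simulated data. Errors beside differences are limma's SE, and intervals are 95%. Every member is named. Values in every library are given for members called by limma or the authors' deposited table, or among the 3 smallest unadjusted p-values in each direction and comparison. Up to 2 genes per direction are named from each wider list where any passed either threshold. Near copies were sought with blastn 2.17.0 among GENCODE M21 transcripts, at 95% identity or more over at least 200 bases, and 31 of the 32 member transcripts were there at the same coordinates. The alternatives were other filters, only the groups compared, a replicate block, median centring, no trend, the authors' deposited table, and leaving out each library.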

Additional observations from a re-analysis of the deposited data

How the results depend on the processing

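The number of members called by limma stayed at 0 in every comparison and setting except 1: without T2D dnMCUb replicate 2 it was 4 for T2D dnMCUb against control, so leaving out libraries gave 0 to 4. Mfn1 (-0.25), Opa1 (-0.24), Dnm1l (-0.23) and Mfn2 (-0.28) were called there, and Mfn2 turned to 0.0076 without replicate 1. Of the other values and settings of named members, 314 kept direction and side of the threshold. Many of these could not change direction. Other filters, only the groups compared, a replicate block and no trend left each difference unchanged. So did leaving out a library outside the comparison. In those settings only the side of the threshold could move. The 314 cover only the comparisons where a member was called or among the 3 smallest p-values in a direction. In other comparisons some signs turned. Between the T2D groups Bnip3 went from -0.06 to 0.05 without T2D empty vector replicate 1. Mfn2 went from -0.10 to 0.04 there without T2D dnMCUb replicate 1. Counts over all genes moved more. For T2D empty vector against control, 0 genes became 30 with only the groups compared and 72 in the authors' deposited table, and ranged from 0 to 30 when single libraries were left out. For T2D dnMCUb against T2D empty vector, 0 became 9 in the authors' deposited table and 0 to 14 with libraries left out. For T2D dnMCUb against control, 9 became 14 at a mean rlog of at least 3, 0 with no filter, only the groups compared, median centring or no trend, 104 in the authors' deposited table, and 0 to 743 with libraries left out. With both T2D groups against control, 0 became 0 to 314. The highest of these counts came without a T2D dnMCUb library. With single libraries left out, the median over the members ran from -0.0603 to 0.0199 between the T2D groups. It ran from -0.0613 to 0.0076 for T2D dnMCUb against control. For T2D empty vector against control it ran from -0.0240 to 0.0037, and median centring took it below that range. As alternatives chosen after seeing the data, members past an unadjusted p under 0.05 and directions within the wider lists were recounted without each library. In every comparison the number of those members and the share of all genes past that p-value moved with the library left out. The causes were not tested.

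Same-numbered libraries did not deviate alike: their deviations correlated at -0.0876, -0.0133 and -0.511 for control with T2D empty vector, control with T2D dnMCUb, and the T2D groups. By the last value, T2D empty vector 2 deviated from its group mean partly as T2D dnMCUb 1 did. Both had positive values on the first principal component, 2.69 and 10.8, and the others negative ones. The cause was not tested. With a replicate block the genes called for T2D dnMCUb against control went from 9 to 0 and no member was called. Groups of 2 libraries and an unknown depth limit the size of difference that could be detected.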
